A study of Mus musculus with 8 samples.

Results

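The genes described here are 40 genes of cholesterol and fatty acid synthesis, of their control by SREBP and of cholesterol export under LXR. They were chosen by name from the pathway, but with earlier results of these data known. A gene was measured where a probe set of the array carried its symbol and no other, which held for 38 of the 40, with 86 probe sets among the 34945 that had a single symbol. The expression of Acat2 and Nr1h2 was not analysed here, but the promoter counts below include these genes. Each gene was read from its brightest probe set, and the 38 genes were tested together with all others, 18193 in total. They fall into 6 mevalonate genes, 11 sterol genes, 5 genes of SREBP control, 9 fatty acid genes, 4 genes of uptake and intracellular transport and 3 genes of efflux and LXR.

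The study profiled JoMa1, a mouse neural crest precursor line, on Affymetrix expression arrays, to set it against lines grown from the tumours it forms once it carries MYCN. There were 3 arrays of parental JoMa1, a single array whose label gives a GFP control transfectant of JoMa1, and 4 arrays of separate lines, numbered 3 to 6, each derived from a tumour that MYCN-transfected JoMa1 had formed. The tumours arose in immunocompromised mice, whose strain the labels leave out, so that any host cell would be a mouse cell too and would be read by the same probes. JoMa1 is a single line that was immortalised with a tamoxifen-inducible c-Myc fusion, which all 3 groups share, and the labels do not state whether tamoxifen was in the medium. All cells were taken from culture shortly before confluence. Separate cultures for the parental arrays are not stated, and the p-values therefore measure only the spread between these samples, which may be technical. All values are log2 RMA values, on which a difference of 1 is a 2-fold change, and they are given per array in the order parental 1 to 3, GFP-labelled, tumour lines 3 to 6.

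Cells make cholesterol from acetyl-CoA through mevalonate, isoprenoid units, squalene and lanosterol, and make fatty acids from the same precursor through malonyl-CoA. SREBP transcription factors switch on the genes of both routes when sterols in the endoplasmic reticulum are low: Scap carries the SREBP precursor to the Golgi for cleavage, and the Insig proteins hold it back when sterols are high. LXR receptors are activated by oxysterols, which build up with cholesterol, and switch on the exporters Abca1 and Abcg1. Cells of the nervous system and its neural crest derivatives make much of their own cholesterol.

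The labels were checked first. The brightest probe set of Mycn lay between 7.29 and 7.49 in the parental arrays and between 14.08 and 14.26 in the tumour lines, but it also stood at 11.73 in the library labelled GFP-transfected. Another Mycn probe set lay between 8.01 and 8.23 in the parental arrays, at 4.33 in that library and between 4.53 and 4.69 in the tumour lines. On both probe sets that library lay on the side of the tumour lines, which goes against its label, and every direction drawn from it carries this limit. The remaining Mycn probe set did not separate the groups: it stood at 5.64 to 5.97 in the parental arrays, 5.88 in that library and 5.90 to 6.23 in the tumour lines. The mean level of 10 neural crest markers was 7.98 to 8.01 in the parental arrays, 7.88 in the GFP-labelled array and 7.95 to 8.21 in the tumour lines. Among them Pax3 and Snai2 were bright, while Foxd3 (4.41 to 4.80) and Ngfr (5.08 to 5.56) were dim beside the negative controls, whose mean was 3.84 to 4.04 per array, and Sox10 lay between 7.19 and 7.47. Of the 10, Pax3 was called lower in the tumour lines than in parental cells (-1.17). Msx1 (1.05) and Snai2 (0.53) were called higher (limma, adjusted p under 0.05). Over all genes, 19.4% were called lower and 16.6% higher. In the GFP-labelled array Pax3 stood at 9.35, within the 9.07 to 9.91 of the tumour lines, and Snai2 at 10.73, below both groups.

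Genes of cholesterol and fatty acid synthesis were lower in the MYCN tumour lines than in parental JoMa1, and genes of cholesterol export were higher. Of the 38 genes, 26 fell, 5 rose and 7 did not pass the test (limma, adjusted p under 0.05 over all genes). Among all 18193 genes 19.4% were called lower and 16.6% higher, and among the genes above the median level, where 35 of the 38 lay, 31.4% and 23.1%. The 5 genes that rose became 3 without any 1 of the parental arrays. The median difference was -1.04 over the 38 genes and 0.01 over all genes. A fall of at least 2-fold was called for 19 of the 38, against 3.93% of all genes, and a rise of at least 2-fold for 2, against 4.92%. All 4 tumour lines lay below all 3 parental arrays for 27 of the 38 genes, against 23.2% of all genes, and above them for 6, against 21.2%. Of the 9096 genes above the median level, 512 were called lower and 573 higher by at least 2-fold. In 3380 of these 9096 all tumour lines lay below all parental arrays, and in 2496 above them. In bulk RNA fewer cells with a transcript and less of it per cell cannot be told apart.

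**Figure D1:**
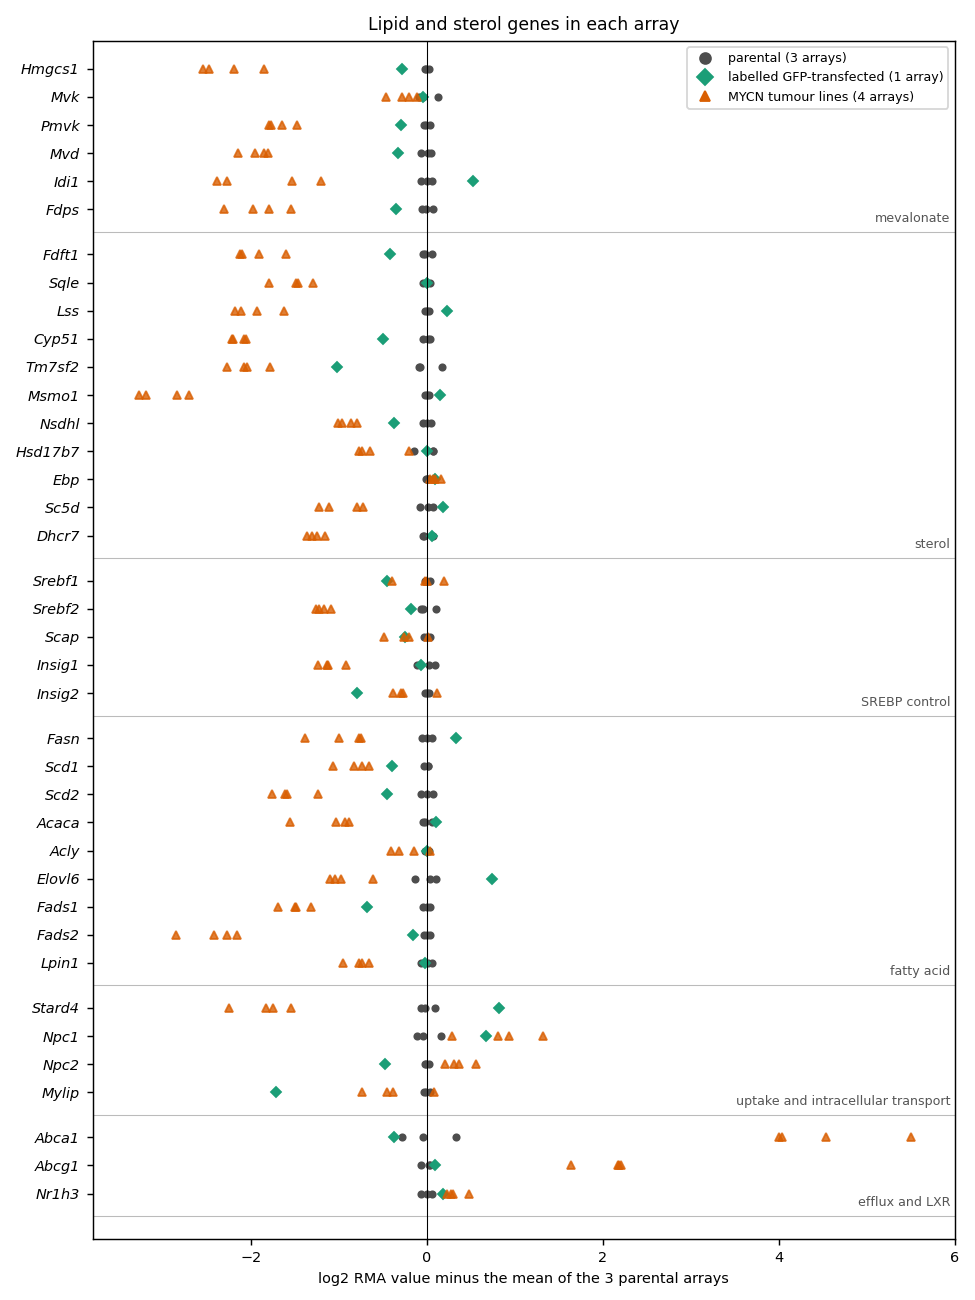
Each row is 1 of the 38 measured genes, grouped by step, and each point is 1 array, placed by its log2 RMA value minus the mean of the 3 parental arrays. The tumour lines lie left of the parental arrays in nearly all synthesis genes, down to the -3.00 mean difference of Msmo1, and right of them for Abca1, Abcg1 and Nr1h3.

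Promoter sequences are shown for 5 genes that stand for the patterns in the data: Hmgcs1 and Msmo1, whose differences were the most negative of the mevalonate and the sterol genes; Ebp, the sterol gene that showed no call; Insig1, the sterol sensor that fell with them; and Abca1, which moved the other way. Each is the stretch of 250 bases before the annotated start, 5′ to 3′ on the gene's own strand, from RefSeq on build GRCm38.p6. Capitals mark any match, on either strand, to a sterol regulatory element (TCACNCCAC), an E-box (CACGTG, the core that Myc-family proteins and others bind) or the NF-Y box (CCAAT, read ATTGG from the other strand). The regions are, in the same order, chr13:119690101-119690350 on the plus strand, chr8:64733579-64733828 on the minus strand, chrX:8193513-8193762 on the minus strand, chr5:28071162-28071411 on the plus strand and chr4:53159896-53160145 on the minus strand.
Hmgcs1: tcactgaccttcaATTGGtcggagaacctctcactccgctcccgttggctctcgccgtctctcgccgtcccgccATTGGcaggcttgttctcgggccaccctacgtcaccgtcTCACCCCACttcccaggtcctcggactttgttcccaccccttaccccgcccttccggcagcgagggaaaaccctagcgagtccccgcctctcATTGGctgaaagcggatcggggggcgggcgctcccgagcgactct
Msmo1: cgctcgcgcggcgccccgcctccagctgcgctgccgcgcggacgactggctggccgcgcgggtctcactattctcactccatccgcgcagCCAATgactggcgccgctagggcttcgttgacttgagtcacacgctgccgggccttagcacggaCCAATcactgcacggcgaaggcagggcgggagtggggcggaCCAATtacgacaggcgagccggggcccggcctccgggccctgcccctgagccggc
Ebp: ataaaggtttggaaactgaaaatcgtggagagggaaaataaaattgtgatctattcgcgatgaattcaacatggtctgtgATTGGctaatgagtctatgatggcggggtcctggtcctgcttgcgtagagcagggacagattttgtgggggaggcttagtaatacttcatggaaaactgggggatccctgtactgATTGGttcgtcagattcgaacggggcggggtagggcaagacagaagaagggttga
Insig1: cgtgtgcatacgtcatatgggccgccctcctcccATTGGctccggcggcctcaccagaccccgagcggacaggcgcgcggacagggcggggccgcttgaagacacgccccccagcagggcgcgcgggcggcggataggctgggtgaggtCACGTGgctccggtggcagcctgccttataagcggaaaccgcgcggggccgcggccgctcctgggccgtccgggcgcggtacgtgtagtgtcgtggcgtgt
Abca1: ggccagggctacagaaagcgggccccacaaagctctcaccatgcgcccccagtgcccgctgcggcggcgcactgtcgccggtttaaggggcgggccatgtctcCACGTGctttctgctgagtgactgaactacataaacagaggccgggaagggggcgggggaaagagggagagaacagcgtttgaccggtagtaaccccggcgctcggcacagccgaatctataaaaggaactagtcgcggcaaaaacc

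Counting back from the start, the sterol regulatory element of Hmgcs1 spans bases -137 to -129, and its window also holds NF-Y boxes starting at -237, -176 and -45. Msmo1 holds 3 NF-Y boxes, starting at -160, -96 and -55, and Ebp holds 2, at -170 and -55, so that a gene with no called difference carries the same letters as genes that fell. Insig1 holds an NF-Y box at -216 and an E-box at -101, and Abca1 holds an E-box at -147 and no NF-Y box. Over windows of 250 bases before to 50 after the start, 31 of the 40 genes had an entry, with 40 windows between them. The NF-Y box was in a window of 22 of these 31 genes (71.0%), against 41.1% of all 27025 genes with an entry and 42.0% of those on the array, and of 14 of 15 mevalonate and sterol genes (93.3%). The 1 of these 15 without it was Acat2, whose expression was not analysed. The E-box was in 6 of the 31 (19.4%), against 8.09% of all genes and 10.2% of those on the array. The sterol regulatory element in this strict spelling was in 1 of the 31, Hmgcs1, against 1.44% of all genes. The 3 motifs do not overlap each other in the printed stretches, and a match describes letters only.

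Of the 6 mevalonate genes, 5 fell, with a median difference of -1.88 over the 6. Hmgcs1, which makes HMG-CoA at the head of the route, stood at 13.03, 13.07 and 13.04 in the parental arrays, 12.76 in the GFP-labelled array, and 10.57, 11.19, 10.50 and 10.85 in the tumour lines. The tumour lines lay far below the other 4 arrays without overlap, a difference of -2.27 (SE 0.16, 4.81-fold, adjusted p = 1.43e-05 in limma). All 5 probe sets of Hmgcs1 fell, by differences from -2.95 to -2.05. Mvd, which decarboxylates mevalonate pyrophosphate, stood at 9.43, 9.40 and 9.32 in parental cells, 9.05 in the GFP-labelled array, and 7.53, 7.58, 7.24 and 7.43 in the tumour lines. Those groups did not overlap either, with a difference of -1.94 (SE 0.09, adjusted p = 1.99e-06 in limma).

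Fdps, the farnesyl pyrophosphate synthase, fell by 1.91 (SE 0.16), and Pmvk, the phosphomevalonate kinase, by 1.67 (SE 0.09). Idi1, the isopentenyl pyrophosphate isomerase, stood at 11.80, 11.92 and 11.87 in parental cells, 12.39 in the GFP-labelled array, and 9.59, 10.66, 9.48 and 10.33 in the tumour lines. It had the widest spread among tumour lines of these 6 genes (SD 0.57, n = 4), lines 4 and 6 lying above lines 3 and 5, and fell by 1.85 (SE 0.27). Mvk, the mevalonate kinase, differed by -0.26 on its brightest probe set (adjusted p = 0.0735 in limma), although all tumour lines lay below all parental arrays. Its other probe set differed by -0.99 (adjusted p = 0.000108 in limma), and without tumour line 4 the brightest one was called too, at -0.31 (adjusted p = 0.0384).

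Of the 11 sterol genes, 10 fell and Ebp did not pass the test, with a median difference of -1.51. Msmo1, which removes the C4 methyl groups of sterols, stood at 11.75, 11.71 and 11.73 in parental cells, 11.88 in the GFP-labelled array, and 8.54, 9.03, 8.46 and 8.89 in the tumour lines. Its difference of -3.00 (SE 0.14, 7.99-fold, adjusted p = 1.83e-06 in limma) was the most negative of all 38 genes and ranked 78 among the falls of all 18193. Cyp51, the lanosterol demethylase, stood at 11.45, 11.43 and 11.37 in parental cells, 10.92 in the GFP-labelled array, and 9.34, 9.36, 9.20 and 9.21 in the tumour lines. The 4 lines lay close together and below every other array, a difference of -2.14 (SE 0.07, 4.40-fold, adjusted p = 2.87e-07 in limma).

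The first steps from farnesyl pyrophosphate fell as well. Fdft1, the squalene synthase, fell by 1.93 (SE 0.13), Sqle, the squalene epoxidase and a rate-limiting enzyme of the sterol branch, by 1.51 (SE 0.11), and Lss, which closes the rings to lanosterol, by 1.96 (SE 0.13). Tm7sf2, a sterol C14 reductase, stood at 8.84, 9.11 and 8.85 in parental cells, 7.91 in the GFP-labelled array, and 6.85, 6.89, 6.66 and 7.15 in the tumour lines. The GFP-labelled array lay between the groups, and the tumour lines fell by 2.05 (SE 0.13). The differences of 3 further enzymes were smaller: Dhcr7, which makes cholesterol from 7-dehydrocholesterol, fell by 1.27 (SE 0.07), Sc5d, the sterol C5 desaturase, by 0.97 (SE 0.13), and Nsdhl, which acts with Msmo1 on the C4 methyl groups, by 0.91 (SE 0.08).

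Hsd17b7, the keto reductase of the same C4 complex, fell by 0.59 (SE 0.14, adjusted p = 0.0113 in limma), and the call was lost without parental array 1 (adjusted p = 0.051). Its tumour line 4, at 9.36, lay just under the lowest parental array, at 9.42. Ebp, the sterol isomerase, stood at 10.44, 10.43 and 10.45 in parental cells, 10.53 in the GFP-labelled array, and 10.53, 10.47, 10.60 and 10.51 in the tumour lines. All tumour lines lay above all parental arrays, yet by only 0.09 (SE 0.06, adjusted p = 0.339 in limma). Over the mevalonate and sterol genes together, 15 of 17 fell, 12 of them by at least 2-fold, and the median difference was -1.85.

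**Figure D2:**
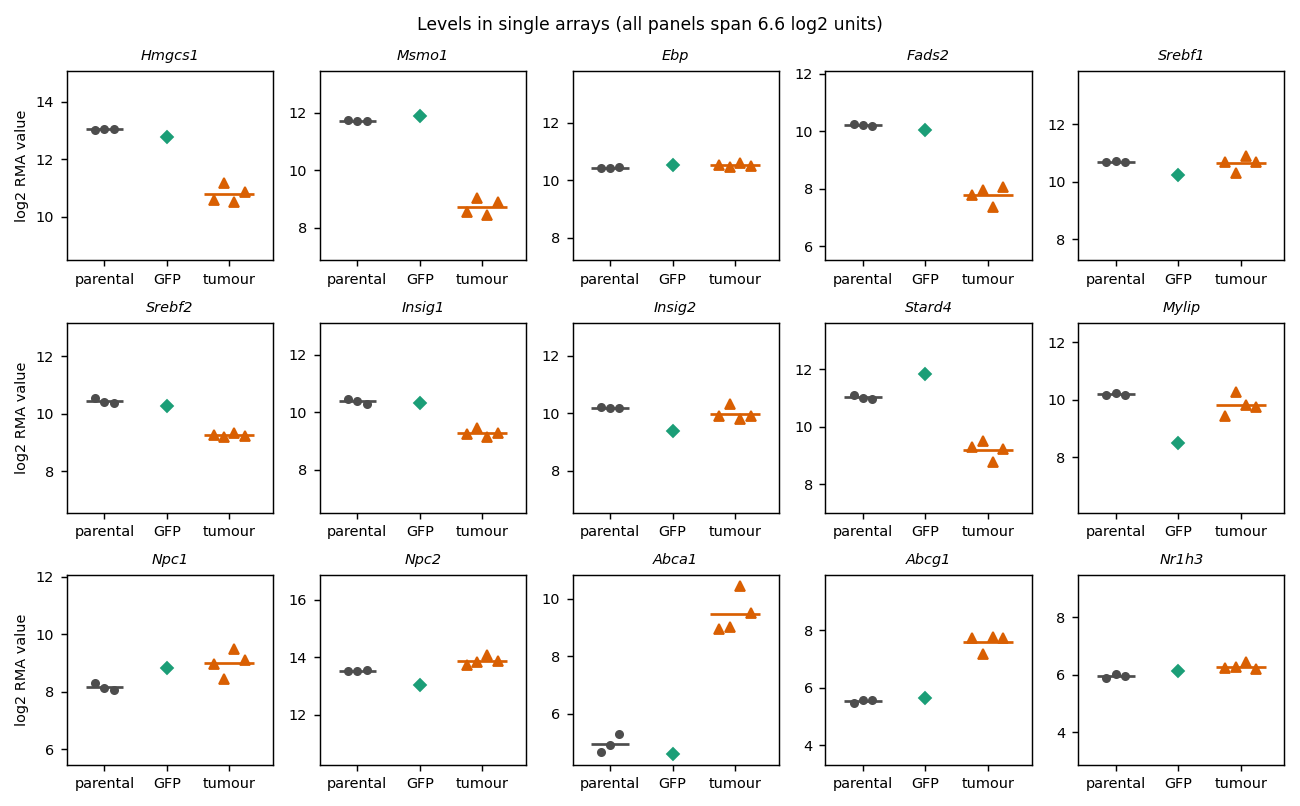
Each panel shows the log2 RMA value of 1 gene in the 3 parental arrays, the GFP-labelled array and the 4 tumour lines (in the order 3 to 6), with bars at the group means, and every panel spans the same range of log2 units. Hmgcs1, Msmo1, Fads2, Srebf2, Insig1 and Stard4 separate the tumour lines from all other arrays downwards, Abca1 and Abcg1 upwards, and Srebf1 and Insig2 overlap.

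The regulators split. Srebf2, whose protein mainly drives the cholesterol genes, stood at 10.54, 10.39 and 10.37 in parental cells, 10.25 in the GFP-labelled array, and 9.26, 9.17, 9.34 and 9.21 in the tumour lines. The groups did not overlap, and the difference was -1.19 (SE 0.08, 2.28-fold, adjusted p = 9.68e-06 in limma); a dimmer probe set differed by -0.69. Srebf1, whose protein mainly drives the fatty acid genes, stood at 10.69, 10.73 and 10.67 in parental cells, 10.24 in the GFP-labelled array, and 10.70, 10.30, 10.89 and 10.68 in the tumour lines. Its tumour lines lay on both sides of the parental arrays, with line 4 lowest, and the difference of -0.05 (SE 0.13, adjusted p = 0.797 in limma) turned to 0.06 without line 4.

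Insig1, itself an SREBP target that retains SREBP in the endoplasmic reticulum, stood at 10.48, 10.41 and 10.28 in parental cells, 10.32 in the GFP-labelled array, and 9.26, 9.47, 9.15 and 9.27 in the tumour lines. The tumour lines were all lower, by 1.10 on average (SE 0.09, adjusted p = 4.38e-05 in limma). Insig2, its relative, stood at 10.21, 10.17 and 10.19 in parental cells, 9.39 in the GFP-labelled array, and 9.90, 10.31, 9.80 and 9.92 in the tumour lines. Line 4 lay above the parental arrays and the other lines below them. The difference of -0.21 was not called (adjusted p = 0.22 in limma), but it was -0.32 without line 4 (adjusted p = 0.00879). Scap differed by -0.23 (adjusted p = 0.153 in limma), and by -0.31 without line 6, which then passed (adjusted p = 0.0347).

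Of the 9 fatty acid genes, 8 fell and Acly did not pass the test, with a median difference of -0.98. Fads2, which starts the desaturation of polyunsaturated fatty acids, stood at 10.26, 10.22 and 10.19 in parental cells, 10.06 in the GFP-labelled array, and 7.80, 7.95, 7.37 and 8.07 in the tumour lines. It was the fatty acid gene with the most negative difference, -2.43 (SE 0.15, 5.38-fold, adjusted p = 8.74e-06 in limma), and its groups did not overlap. Fads1, the desaturase that follows it, fell by 1.50 (SE 0.09).

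Scd2 and Scd1 make monounsaturated fatty acids. Scd2 stood at 13.63, 13.69 and 13.76 in parental cells, 13.24 in the GFP-labelled array, and 12.45, 12.10, 11.93 and 12.08 in the tumour lines. Scd1 stood at 11.57, 11.52 and 11.57 in parental cells, 11.16 in the GFP-labelled array, and 10.90, 10.49, 10.73 and 10.81 in the tumour lines. In both genes the tumour lines were the 4 lowest arrays and the GFP-labelled array lay between the groups. Scd2 fell by 1.56 (SE 0.12) and Scd1 by 0.82 (SE 0.10, adjusted p = 0.000341 in limma).

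Acaca, which makes malonyl-CoA, fell by 1.11 (SE 0.16), Fasn, the fatty acid synthase, by 0.98 (SE 0.15), Elovl6, the elongase of palmitate, by 0.93 (SE 0.12), and Lpin1, a phosphatidate phosphatase, by 0.78 (SE 0.09). Acly, which supplies acetyl-CoA from citrate, lay between 12.67 and 12.71 in parental cells and between 12.28 and 12.72 in the tumour lines, line 5 lying above all parental arrays. Its difference of -0.21 was not called (adjusted p = 0.166 in limma), though it was -0.29 without line 5 (adjusted p = 0.0306). Of its 6 probe sets, 1 other was called, at -0.63 (adjusted p = 0.00793 in limma).

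The 4 genes of uptake and intracellular transport did not move as a group, with a median difference of -0.01. Stard4, a carrier of cholesterol between membranes and an SREBP target, stood at 11.12, 11.01 and 10.97 in parental cells, 11.85 in the GFP-labelled array, and 9.28, 9.49, 8.78 and 9.21 in the tumour lines. It fell by 1.84 (SE 0.15, 3.59-fold, adjusted p = 3.92e-05 in limma), with no overlap. Npc1 and Npc2 move cholesterol out of the lysosome. Npc1 stood at 8.32, 8.12 and 8.05 in parental cells, 8.84 in the GFP-labelled array, and 8.97, 8.45, 9.48 and 9.10 in the tumour lines. All tumour lines lay above the parental arrays, line 4 only just, and the rise of 0.84 (SE 0.21, adjusted p = 0.0138 in limma) was lost without parental array 2 or 3 (adjusted p = 0.0521 and 0.0589) and with the GFP-labelled array counted as parental (0.67, adjusted p = 0.0696).

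Npc2 stood at 13.50, 13.51 and 13.54 in parental cells, 13.04 in the GFP-labelled array, and 13.72, 13.82, 14.07 and 13.88 in the tumour lines. The rise was small, 0.35 (SE 0.09, adjusted p = 0.0148 in limma), and was lost without parental array 1 or 2 (adjusted p = 0.0565 and 0.0527). Mylip, an LXR target that marks lipoprotein receptors for breakdown, stood at 10.18, 10.23 and 10.16 in parental cells, 8.48 in the GFP-labelled array, and 9.45, 10.27, 9.80 and 9.74 in the tumour lines. Line 4 lay above the parental arrays and the other lines below. The difference of -0.37 was not called (adjusted p = 0.127 in limma), but without line 4 it was -0.53 (adjusted p = 0.00559), and with the GFP-labelled array counted as parental it was 0.05.

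All 3 measured genes of efflux and LXR rose. Abca1, which exports cholesterol to lipid-poor apolipoproteins, stood at 4.68, 4.91 and 5.29 in parental cells, 4.59 in the GFP-labelled array, and 8.96, 9.00, 10.46 and 9.50 in the tumour lines. The parental and GFP-labelled values were dim and the tumour lines were far above them, line 5 highest. The difference was 4.52 (SE 0.35, adjusted p = 2.65e-05 in limma). Detection calls were not used here, and where the parental signal is background, this difference is a lower bound of at least 23.0-fold. The other probe sets of Abca1 differed by 0.57 (called) and 0.01 (not called), and both were dim, at most 5.99 in any array.

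Abcg1, which exports cholesterol to lipoprotein particles, stood at 5.49, 5.58 and 5.59 in parental cells, 5.64 in the GFP-labelled array, and 7.73, 7.19, 7.76 and 7.74 in the tumour lines. Lines 3, 5 and 6 were alike and line 4 lower, and the difference was 2.05 (SE 0.14, 4.15-fold, adjusted p = 1.51e-05 in limma), with 0.62 on a dimmer probe set. Nr1h3, which encodes LXR alpha, stood at 5.90, 6.03 and 5.97 in parental cells, 6.15 in the GFP-labelled array, and 6.24, 6.26, 6.45 and 6.19 in the tumour lines. Its groups did not overlap, but the rise was only 0.32 (SE 0.08, adjusted p = 0.016 in limma) and was lost without parental array 1 or 3 (adjusted p = 0.0718 and 0.0506).

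Abca1 is also strongly expressed by macrophages, and the mean of the macrophage and leukocyte list was higher in the tumour lines too, though most of its markers were not called. The mean level of its 8 measured markers was 5.62 to 5.77 in the parental arrays, 5.86 in the GFP-labelled array and 6.07 to 6.16 in the tumour lines. Of the 8, Cd14 (1.83), Cd68 (0.80) and Lyz2 (0.49) rose, none fell and 5 were not called, where 16.6% of all genes were called higher. Cd68 was also raised in the GFP-labelled array, at 6.48, where Abca1 stood at 4.59. Csf1r, a macrophage receptor, lay between 6.98 and 7.20 in the parental arrays and between 7.04 and 7.22 in the tumour lines. Ptprc, the defining leukocyte marker, lay between 4.05 and 4.14 in the tumour lines and between 3.90 and 4.37 in the parental arrays, close to the negative controls, and Adgre1 and Itgam lay at or below 4.64 in every array. The part of this list in the rise of Abca1 and Abcg1 was not tested.

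**Figure D3:**
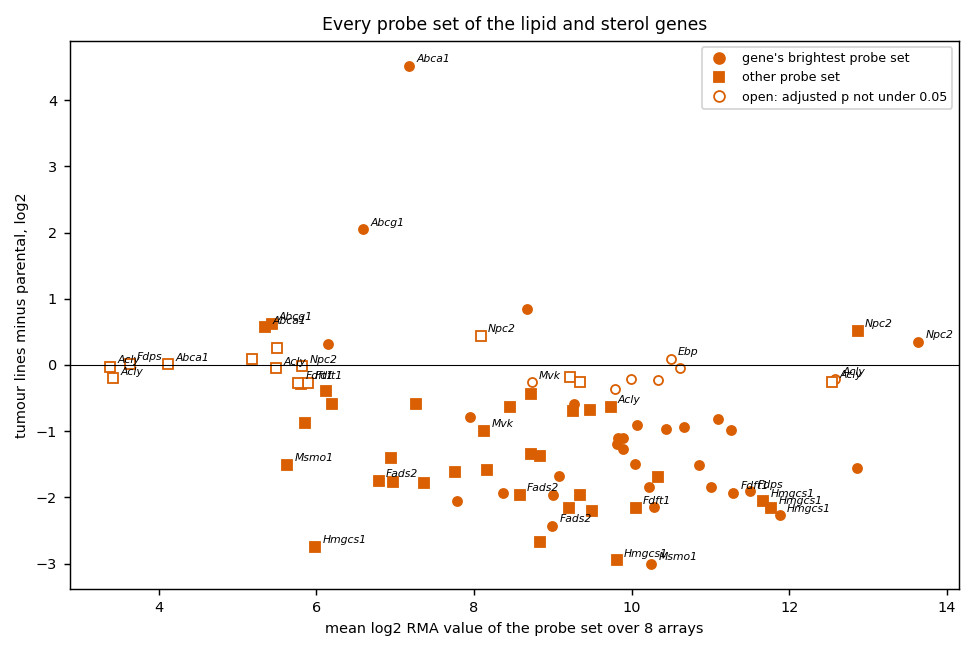
Each point is 1 of the 86 probe sets, placed by its mean log2 RMA value over the 8 arrays and its difference, tumour lines minus parental; circles are the brightest probe set of each gene, squares the others, and open symbols were not called. The uncalled probe set of Fdps lies at the dim end, and no gene had probe sets called in opposite directions.

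Of the 86 probe sets, 56 fell and 8 rose in the tumour lines, against 18.4% and 15.5% of all 34945 probe sets with 1 symbol (limma over these probe sets). More than 1 probe set represented 26 genes, of which 16 had all of theirs called in 1 direction, 8 had some called, all in 1 direction, and Insig2 and Scap had none. The second probe set of Fdps, at 3.53 to 3.81 in every array, was at the dim end of the array and was not called, and neither was a pair for Fdft1 that lay between 5.55 and 6.42, around the array medians.

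The 38 genes varied among the tumour lines. Their median SD was 0.22 over the 4 tumour lines and 0.05 over the 3 parental arrays, against 0.13 and 0.08 over all genes and 0.15 and 0.06 over the genes above the median level. Line 5 was the lowest line in 11 of the 17 mevalonate and sterol genes (64.7%), against 24.8% of all genes, and line 4 the highest in 11 (64.7%), against 26.7%. Line 4 was the highest in all 6 mevalonate genes. In the 11 sterol genes it was the highest in 5 (45.5%) and the lowest in 3 (27.3%), against 26.7% and 27.5% of all genes. Its median over the sterol genes, -1.60, was lower than the -1.29, -1.49 and -1.46 of lines 3, 5 and 6. In the 9 fatty acid genes lines 4 and 5 were each the lowest in 4 (44.4%), against 27.5% and 24.8% of all genes. Line 5 was the highest in all 3 efflux and LXR genes. No test was made of these orders, since each line is a single array and genes of a pathway are not independent. The median difference of the 17 mevalonate and sterol genes from the parental mean was -1.65, -1.55, -1.93 and -1.78 in lines 3 to 6, so the fall was present in each.

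**Figure D4:**
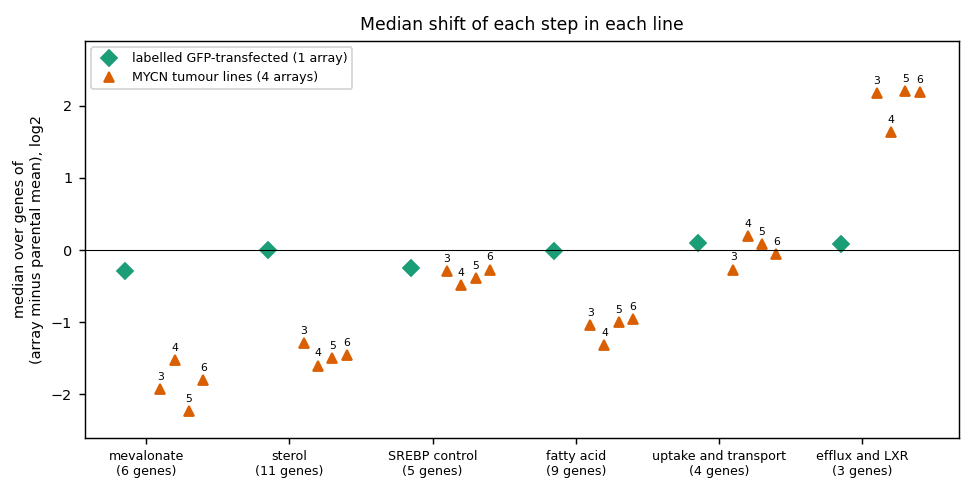
For each step, the median over its genes of the array's log2 RMA value minus the parental mean is drawn for the GFP-labelled array and for tumour lines 3 to 6, numbered. Mevalonate medians run from -2.23 in line 5 to -1.52 in line 4, and the GFP-labelled array lies within 0.3 of 0 in every step.

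In the library labelled GFP-transfected most synthesis genes lay above all tumour lines. Its brightest Mycn probe set, at 11.73, lay above the parental arrays and below the 14.08 to 14.26 of the tumour lines. The part of Mycn in these values was not tested. Against the parental arrays, 6 of the 38 genes fell, 2 rose and 30 did not pass the test (limma), where 8.66% of all genes were called lower and 7.43% higher. Of the 9096 genes above the median level, 1240 were called lower and 1061 higher. The median difference was -0.12 over the 38 genes and -0.04 over the mevalonate and sterol genes. A single array is assumed here to vary like the other groups. With only the parental arrays and this one in the fit, more of the 38 genes were called, lower and higher. The share of all genes called in that fit was not counted. The value of this library lay above all 4 tumour lines in 16 of the 17 mevalonate and sterol genes and in 27 of the 38, against 32.4% of all genes. It lay below them in 7 of the 38, against 35.5% of all genes. Of the 9096 genes above the median level, it lay above all tumour lines in 4041 and below them in 3136. Inside the parental range lay 7 of the 38 values, against 28.8% of all genes and 11.9% of those above the median level.

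Its lower genes were Mylip (-1.71, SE 0.25, adjusted p = 0.00288 in limma), Tm7sf2 (-1.02, adjusted p = 0.00789), Insig2 (-0.80, adjusted p = 0.0175), Fads1 (-0.68, adjusted p = 0.0126), Cyp51 (-0.50, adjusted p = 0.0159) and Npc2 (-0.48, adjusted p = 0.0464). Its higher genes were Stard4 (0.81, adjusted p = 0.0457 in limma) and Elovl6 (0.74, adjusted p = 0.0318). Without parental array 1 the calls of Cyp51 (adjusted p = 0.0508), Insig2 (0.0529), Elovl6 (0.0575), Stard4 (0.0862) and Npc2 (0.101) were lost, and those of Stard4, Elovl6 and Npc2 were lost without parental array 2 (0.107, 0.0706 and 0.1) or 3 (0.117, 0.0871 and 0.113) as well. Insig2 was also lost without parental array 3 (0.0516), Stard4 without tumour line 3 (0.0636) or 6 (0.0672), and Npc2 without tumour line 4 (0.0508) or 6 (0.066). Stard4, Elovl6 and Npc2 stood in this library on the side of the parental arrays away from the tumour lines. Fabp4, a fatty acid carrier of adipocytes, was 9.17 in this library, 6.33 to 6.63 in the parental arrays and 4.72 to 5.29 in the tumour lines, while Adipoq, Lep and Cidec stayed at or below 4.70 in every array; the 4 adipocyte markers averaged 5.62 there and 4.76 to 4.89 in the parental arrays. Its part in the values of this library was not tested.

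The tumour lines were also set against the GFP-labelled array, a comparison that shares the tumour arrays with the one above. Here 24 of the 38 genes were lower, 5 higher and 9 not called (limma), where 16.4% of all genes were called lower and 14.0% higher, and the median difference over the 38 was -1.03. Of the 9096 genes above the median level, 2457 were called lower and 1922 higher. Of the 17 mevalonate and sterol genes, 14 were lower. Msmo1 differed by -3.15 (SE 0.20), Stard4 by -2.66 (SE 0.22), Idi1 by -2.38 (SE 0.40) and Abcg1 by 1.97 (SE 0.21). Abca1 differed by 4.90 (SE 0.51), with the same limit from its dim value in the GFP-labelled array, and the value of Abcg1 there, 5.64, was dim too. Mylip and Insig2, which were lower in the GFP-labelled array than in parental cells, were higher in the tumour lines than in that array, by 1.34 (SE 0.25) and 0.60 (SE 0.17). The Insig2 call was lost without parental array 1, 2 or 3. It was also lost with only the tumour lines and the GFP-labelled array in the fit, where the difference stayed at 0.60.

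Other genes of the same routes, outside the 40, were counted in 8 lists, each to be read against the 19.4% of all genes called lower and the 16.6% called higher. Of 13 other SREBP targets, 6 fell and 1 rose in the tumour lines, with a median difference of -0.23. Acss2, which makes acetyl-CoA from acetate, fell by 1.96 (SE 0.09), Mid1ip1, an activator of acetyl-CoA carboxylase, fell by 1.89 (SE 0.17), and Fabp5, a fatty acid carrier, fell by 0.98 (SE 0.19). The gene that rose was Tmem97, a sterol-regulated membrane protein (0.53, SE 0.09). Of 8 genes that process or degrade SREBP and its partners, 3 fell: Erlin2 (-0.87), and Mbtps1 (-0.46) and Mbtps2 (-0.24), the proteases that cleave SREBP. Of 10 genes of the mevalonate branches to isoprenoids, 4 fell and 1 rose: Ggps1, which makes geranylgeranyl pyrophosphate, rose by 0.51, while Pdss2 of the ubiquinone branch differed by -0.49 and Fnta, a farnesyltransferase subunit, by -0.38.

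Of 14 genes of sterol storage and transport, 3 fell and 4 rose, in both directions as over all genes. Gramd1c, of a family of sterol carriers, fell by 1.91 (SE 0.16), and Vldlr, a lipoprotein receptor, and Nceh1, a cholesterol ester hydrolase, rose by 1.40 (SE 0.15) and 0.69 (SE 0.07). Of 6 oxysterol and bile acid enzymes, Hsd3b7 (1.22, SE 0.17) and Ch25h, which makes 25-hydroxycholesterol (0.36, SE 0.11), rose and none fell. Of 6 other LXR targets and nuclear receptor partners only Nr1d1 rose (0.46, SE 0.10).

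Among 16 genes of fatty acid elongation and activation, 2 fell and 4 rose, with Elovl7 at 1.99 (SE 0.21), Acsl4 at 0.80 (SE 0.13) and Tecr at -0.62 (SE 0.10). Among 15 genes of fatty acid oxidation, 2 fell and 4 rose, and both lists, like all genes, held calls in both directions. Cpt1a, which admits long-chain fatty acids to the mitochondrion, rose by 1.48 (SE 0.19), while Cpt1c and Cpt2 fell by 0.73 and 0.61. The median differences of these lists were 0.04 and 0.02, near that of all genes.

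**Figure D5:**
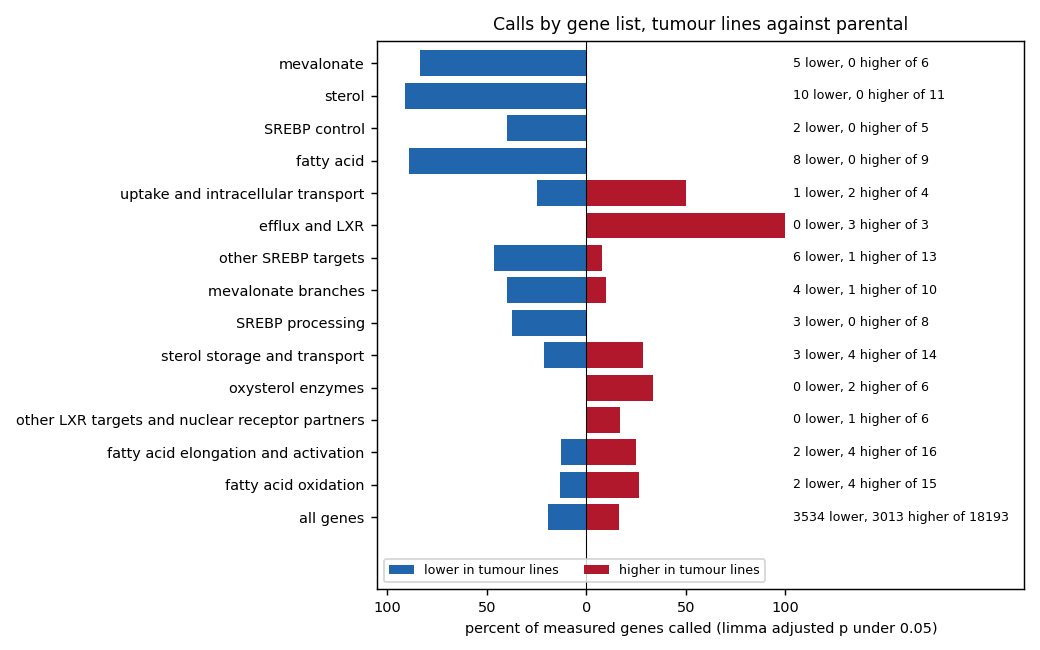
Bars give the percent of measured genes in each list that were called lower (left) or higher (right) in the tumour lines than in parental cells, with the counts at the right. Mevalonate, sterol and fatty acid genes lie almost wholly on the lower side, efflux and LXR genes on the higher side, and the oxidation, elongation and storage lists on both.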

How the data were processed

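RNA of 8 samples was measured on 8 Affymetrix arrays. The deposited log2 values were made by the authors with RMA, and the submitters' processing notes also name Partek. Array medians of 6.26 to 6.30 showed the log2 scale. RMA understates the differences of dim probe sets and removes any change in total RNA. Depth does not apply to arrays, and the number of arrays limits the precision. Of 45101 probe sets, 34945 had 1 gene symbol in the platform annotation, 932 several and 9160 none, and 64 were controls; 34754 matched a RefSeq gene. Each gene was read from its probe set with the highest mean. Limma 3.58.1 in R 4.3.3 (lmFit and eBayes, tested on simulated data) was fitted with 1 coefficient per group over the 8 arrays, two-sided, with Benjamini-Hochberg adjustment over 18193 genes and calls at adjusted p under 0.05. A separate fit covered all probe sets with 1 symbol. Promoter motifs were searched on both strands.

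The genes and lists were chosen with earlier results of these data known. Values per array are printed for the 2 called genes of largest difference in each step, for called genes against their step's median and for Srebf1, Srebf2, Insig1, Insig2, Abca1, Abcg1, Nr1h3, Scd1 and Scd2; those of Ebp, Idi1, Tm7sf2 and Mylip were added after their values were seen. Up to 3 called genes of largest difference are named per other list, and Tmem97, the 1 that rose in its list, was named after its value was seen. No listed gene without a probe set of its own symbol was tested for expression here, though the promoter counts include Acat2 and Nr1h2. Among the remaining marker lists, none of 5 endothelial markers was called in the tumour lines against parental, Cdh5 being 6.71 in the GFP-labelled array and 4.63 to 4.97 elsewhere, and none of 4 hepatocyte markers was called in any comparison. The 3′ to 5′ difference of the beta-actin control was 0.63 to 0.64 in parental arrays, 0.62 in the GFP-labelled array and 0.52 to 0.61 in tumour lines, and that of Gapdh was 0.05 to 0.08, 0.08 and 0.09 to 0.15. The mean level of the bioB spike-in controls was 7.7 to 8.95 in parental arrays, 8.97 in the GFP-labelled array and 8.86 to 9.17 in tumour lines. The part of these controls in the results was not tested. The 16 alternatives covered the probe set choice, a filter on dim genes, normalization, the variance prior, array weights, the arrays fitted and leaving out each array.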

Additional observations from a re-analysis of the deposited data

Results flagged for a closer look

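Tumour line 4 stood apart for Abcg1, at 7.19 against 7.73 to 7.76 in the other 3 lines: the gap to the nearest line was 0.955 of the group's range, above Dixon's critical value for 4 samples. It was the only 1 of the 38 genes tested in which the highest or lowest line stood apart in this way, and chance flags about 1 in 20 groups; over all genes 5.79% were marked. Line 4 still lay above every parental array, at 5.49 to 5.59.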

How the results depend on the processing

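The counts of genes lower in the tumour lines than in parental cells or the GFP-labelled array, and those of cholesterol and fatty acid synthesis, stayed within 1.5 times under the alternatives run, 16 against parental cells and 15 against the GFP-labelled array, which cannot be pooled with the parental arrays there. Other counts moved. Among genes above the median level, the 5 genes higher than in parental cells became 2 and the 5 higher than in the GFP-labelled array became 3, with Abca1, Abcg1 and Nr1h3 not tested there. The median of -1.04 was -0.96 with the mean of each gene's probe sets and -1.11 among genes above the median level. For the GFP-labelled array against parental, the counts of lower and higher genes rose with only those arrays in the fit. The share of all genes called in that fit was not counted. The count of higher genes fell with the mean of probe sets or with repeated quantile normalization. Leaving out each array gave 25 to 29 lower and 3 to 5 higher genes, a median of -1.07 to -1.01, 14 to 16 cholesterol and 8 to 9 fatty acid genes, 3 to 9 lower and 0 to 2 higher genes for the GFP-labelled array against parental, and 24 to 26 lower and 4 to 6 higher genes for the tumour lines against it; the 5 genes higher than in parental cells became 3 without any 1 parental array, and for the GFP-labelled array the 6 lower became 3 without parental array 1 and the 2 higher became 0 without any 1 parental array and 1 without tumour line 3 or 6. The uncalled difference of Srebf1 ran from -0.14 to 0.06 over the arrays left out, changing sign without tumour line 4, and turned to 0.06 with the GFP-labelled array counted as parental, where that of Mylip turned to 0.05. Some of these fits hold fewer arrays or genes than the main one, and the cause of the changes was not tested. No paired analysis was made, because the labels name no pairs of parental arrays and tumour lines. Dim probe sets, such as those of Nr1h3, limit what can be read.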
